A study of Mus musculus with 87 samples.

Results

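The 6 mouse genes Oas1a, Oas1b, Oas2, Oas3, Oasl1 and Oasl2 encode oligoadenylate synthetases and their like. They were chosen by name, as the members of this family that the deposited tables measure under those symbols, and they are 6 of the 48526 genes in the plate table, of which 30043 had at least 1 count. The mice were adult wild-type C57BL/6J males and females, 6 to 12 months old, and each received 400 nL of saline, alone or with 40 ng of the cytokine interferon-γ (IFN-γ), in the ventral midbrain on both sides. Nuclei were isolated 6, 24, 48 or 72 h later and sorted with an antibody to NeuN, a protein of neuronal nuclei, into wells of neuronal (NeuN+) and other (NeuN−) nuclei. Each fraction had 6 IFN-γ wells at every time and 4 saline wells, except for 6 saline wells at 24 h, 84 wells in all. Single nuclei were taken at 48 h from 1 mouse given saline and 2 given IFN-γ, after a sort that enriched NeuN+ nuclei. The labels give the genotype as wild type, while the husbandry text also names litters with floxed Ifngr1 and a DAT-driven Cre, which acts in dopamine neurons. Wells held a small pool of nuclei, 100 by the study's methods and 1000 by a legend, and each treatment and time drew on 2 to 3 mice. Wells of 1 group thus share mice, the sources do not say which, and p-values here measure the spread between wells.

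Oligoadenylate synthetases bind double-stranded RNA, a sign of viral infection, and join ATP into short 2-5A oligoadenylates, second messengers of the antiviral response. The family is a classical target of interferons, and the response is held in check by enzymes that degrade the oligoadenylates. Oasl1 and Oasl2 carry ubiquitin-like domains: Oasl1 makes no oligoadenylates and holds back translation of Irf7, while mouse Oasl2 is an active synthetase. Oas1b is the mouse locus for resistance to flaviviruses and is cut short by a stop codon in common laboratory strains, C57BL/6 included. The Gencode release used here for gene positions, later than the authors' vM10, lists it as a polymorphic pseudogene.

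All 6 genes lie on chromosome 5 of GRCm38 in 2 neighbouring groups. Oasl2, on the plus strand with 6 exons in its longest transcript, spans chr5:114896936-114912234. Oasl1, next to it on the same strand and also with 6 exons, spans chr5:114923240-114937915 and overlaps the antisense gene Gm13822. The second group holds Oas2 at chr5:120730333-120749853 on the minus strand with 12 exons, overlapping Gm43068 on the other strand, and Oas3 at chr5:120753098-120777661 on the minus strand with 16 exons. Oas1b follows at chr5:120812635-120824163 on the plus strand with 6 exons, and Oas1a at chr5:120896256-120907521 on the minus strand with 7 exons. Between these 2 genes lies Oas1g at chr5:120876142-120887613, a near-identical neighbour of Oas1a, so reads of this pair may be divided between them and the counts of each are uncertain.

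The RefSeq promoter table for GRCm38.p6 matched 4 of the 6 genes, with a window of 300 bases around each start. Windows were searched on both strands for the letters GAAA repeated after 2 bases of any kind, after the interferon-stimulated response element (ISRE), and for TTCNNNGAA, after the γ-activated site (GAS) of genes that respond to IFN-γ. The promoters of Oas1a and Oas3, which hold such letters, and of Oasl2, the member with the most counts after IFN-γ, are shown 5′ to 3′ on the strand of the gene, with matches in capitals.
Oas1a, chr5:120907476-120907775, minus strand: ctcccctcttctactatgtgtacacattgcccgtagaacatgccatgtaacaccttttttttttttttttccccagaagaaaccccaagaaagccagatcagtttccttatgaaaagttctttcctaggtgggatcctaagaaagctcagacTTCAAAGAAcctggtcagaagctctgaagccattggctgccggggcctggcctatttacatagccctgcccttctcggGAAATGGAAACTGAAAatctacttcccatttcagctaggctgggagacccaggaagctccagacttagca
Oas3, chr5:120777610-120777909, minus strand: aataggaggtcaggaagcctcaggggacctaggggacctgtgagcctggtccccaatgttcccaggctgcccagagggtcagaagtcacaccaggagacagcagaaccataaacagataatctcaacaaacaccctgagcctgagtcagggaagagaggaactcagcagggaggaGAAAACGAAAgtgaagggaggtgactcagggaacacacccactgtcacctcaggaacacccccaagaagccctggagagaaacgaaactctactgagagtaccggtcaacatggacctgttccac
Oasl2, chr5:114896684-114896983, plus strand: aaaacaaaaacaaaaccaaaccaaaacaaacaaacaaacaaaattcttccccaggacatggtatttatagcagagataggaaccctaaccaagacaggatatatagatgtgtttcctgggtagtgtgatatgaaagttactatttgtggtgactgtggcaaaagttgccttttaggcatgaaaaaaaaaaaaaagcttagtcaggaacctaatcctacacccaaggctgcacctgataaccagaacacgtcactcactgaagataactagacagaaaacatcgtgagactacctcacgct

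The Oas1a window held 2 overlapping ISRE matches within 20 bases of the start, GAAATGGAAA and GAAACTGAAA, and 1 GAS match, TTCAAAGAA. The Oas3 window held 1 ISRE match, GAAAACGAAA, whose first base lies 75 bases before the start. Neither motif was matched in the Oasl2 window above or in that of Oasl1, which says only that these letters are not in these windows. Of all 32851 promoters in the table, 3.443% held the ISRE letters, 8.298% the GAS letters and 0.454% both.

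The labels call every well NeuN+, and the fraction was taken from the study's own list of well barcodes, 42 wells each. The summed level of 4 pan-neuronal markers was 3090 to 4304 CPM (counts scaled to a common total per well) in the wells listed as NeuN+ and 362 to 864 CPM in those listed as NeuN−, with no overlap. NeuN− wells held 20962 to 301445 unique molecular identifiers (UMIs, counts of distinct RNA molecules) and NeuN+ wells 277113 to 1684374, so that 1 count was worth up to 47.7 CPM in the shallowest well. Sex-linked genes differed between groups: in NeuN+ wells, Xist was 937.6 to 1266 CPM in IFN-γ wells of 6 h and 30.1 to 74.9 CPM in those of 24 h. Saline and IFN-γ wells of the same time differed too: in NeuN+ wells the Y-linked gene Eif2s3y was 64.96 to 80.9 CPM in saline and 0 to 2.00 CPM after IFN-γ at 6 h, and Xist was 21.0 to 1177 CPM in the saline wells of 24 h. Time after injection and, at 6 and 24 h, treatment therefore cannot be told apart from the mice used. In sorted pools, fewer cells of a type and less RNA per cell cannot be told apart either.

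Oasl2 was the most abundant member after IFN-γ by count. In NeuN+ nuclei at 6 h the saline wells held 0, 0, 1.26 and 4.30 CPM, while IFN-γ wells ran from 27.2 through a median of 34.9 to 47.3 CPM (36.7 ± 9.11, SD, n = 6). At 24 h the 6 saline wells held 0 to 3.76 CPM with a median of 0.70, and the IFN-γ wells 36.0 to 59.8 CPM with a median of 40.6 (44.2 ± 9.62, SD, n = 6). The groups did not overlap at either time. Oasl2 rose by 4.29 on the log2 scale at 6 h (SE 0.42, adjusted p = 5.34e-09, edgeR quasi-likelihood test with Benjamini-Hochberg adjustment) and by 5.62 at 24 h (SE 0.36, adjusted p = 5.60e-12). A gene was called where the log2 change passed 1 and the adjusted p was below 0.01, and by that rule 1.08% of the 9033 genes tested were called higher at 6 h and 1.47% of 9416 at 24 h. Oasl2 was the only member with enough counts to be tested there, so that 1 of 6 members was called at each time. It passed a filter on low counts through its IFN-γ wells alone, so these calls are no separate support for the change. Without that filter, and with each well left out in turn, Oasl2 rose by 3.84 to 5.87 at 6 h and by 5.28 to 6.32 at 24 h.

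By 48 h the NeuN+ wells no longer separated. The saline wells then held 0, 1.23, 0.84 and 3.08 CPM of Oasl2 and the IFN-γ wells 0 to 6.75 CPM with a median of 2.80. Pooled over wells, this was 26 counts against 5, a fold of 3.16 with a 95% interval of 1.19 to 10.5. Such intervals are exact, take each count as 1 molecule and cover counting error only. At 72 h only 1 saline well held a count (1.84 CPM), IFN-γ wells ran from 0.72 to 5.73 CPM with a median of 1.90, and the pooled fold was 9.21 (1.44 to 385). Neither time gave a call when all genes were fitted without a filter on low counts (adjusted p = 0.455 and 0.160), with 0.142% and 0.182% of genes called higher, beside 0.15% and 0.351% with the filter.

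In NeuN− nuclei, from shallower wells, Oasl2 was also higher after IFN-γ at 6 and 24 h. At 6 h the saline wells held 0, 17.1, 0 and 0 CPM and the IFN-γ wells 47.7 to 107 CPM with a median of 63.8 (70.3 ± 23.6, SD, n = 6). At 24 h the saline wells held 0 to 11.03 CPM with a median of 0, and the IFN-γ wells 20.1 to 250.3 CPM with a median of 132.1 (134 ± 74.0, SD, n = 6). No IFN-γ well overlapped a saline well at either time, a separation also seen for 2.19% of all genes with a count at each time. The lowest IFN-γ well held a single count at each time, in shallow wells of 20962 UMIs at 6 h and 49776 UMIs at 24 h. The highest saline well held 2 counts at 6 h and 1 at 24 h, so the separation rests on single molecules. Pooled, the wells held 54 counts against 2 at 6 h, a fold of 16.99 (4.48 to 144), and 131 against 1 at 24 h, a fold of 73.5 (12.97 to 2926). No member passed the filter on low counts in this fraction, where 7.86% of 2660 genes were called higher at 6 h and 7.38% of 1883 at 24 h, so the count of called members was 0 of 6. In those fits 1113 and 894 genes had an unadjusted p below 0.05.

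Fitted on all genes without the filter, Oasl2 rose in NeuN− nuclei by 3.82 on the log2 scale at 6 h (SE 0.66, adjusted p = 5.32e-07, edgeR) and by 5.63 at 24 h (SE 0.59, adjusted p = 6.28e-19). Those fits called 1.7% and 2.24% of genes higher. DESeq2 also called it, with adjusted p = 0.00208 and 2.69e-08, where 1.26% and 1.43% of genes were called higher. Whether Oasl2 passed the filter at 24 h turned on single wells: with saline well 1, 3, 4 or 6 or IFN-γ well 3 left out it was tested and called. It then passed through its IFN-γ wells alone, so these calls are no separate support. At 48 h no saline well held a count and the 6 IFN-γ wells held 17 in all (0 to 41.4 CPM, median 28.4), so the level was at least 4.16-fold higher, against a floor of 3 counts over the saline wells. At 72 h IFN-γ wells of 0 to 9.14 CPM overlapped saline wells of 7.19, 0, 0 and 6.61 CPM, and the fold was 1.92 (0.342 to 19.4). Neither was called without the filter (adjusted p = 0.0242 and 0.788, edgeR), where 0.244% and 0.203% of genes were called higher, beside 1.23% and 0.754% with the filter.

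**Figure D1:**
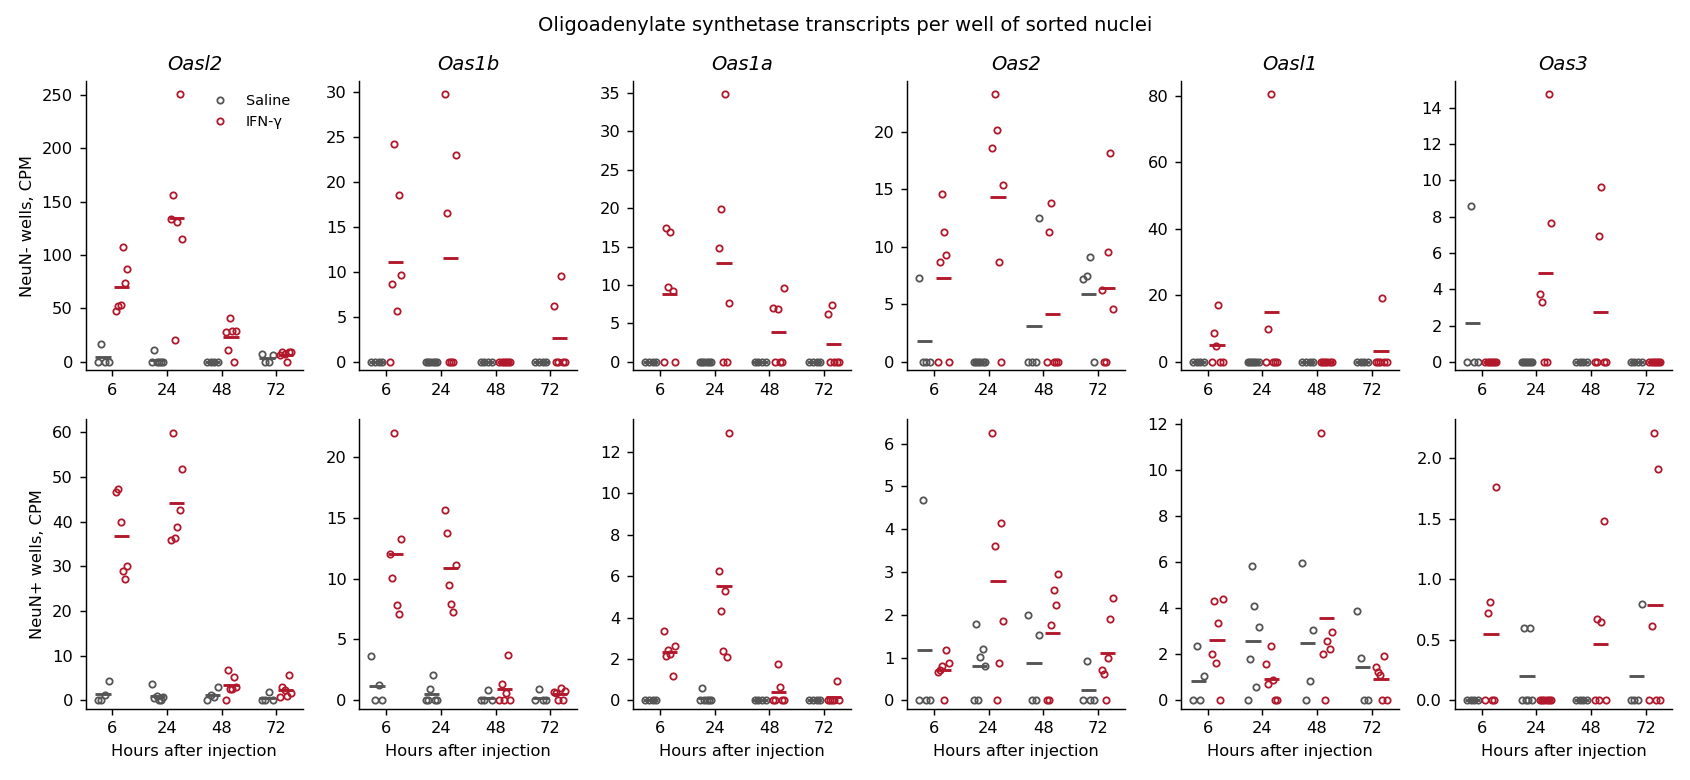
Level in CPM of each of the 6 members in every well, by hours after injection, for NeuN− (top) and NeuN+ (bottom) nuclei, with saline wells in grey, IFN-γ wells in red and bars at group means. Oasl2 was 27.2 to 47.3 CPM in NeuN+ IFN-γ wells at 6 h, against at most 4.30 CPM in saline wells, and fell to at most 6.75 CPM by 48 h.

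Oas1b, whose product is truncated in this strain, rose with Oasl2. In NeuN+ nuclei at 6 h the saline wells held 3.61, 0, 1.26 and 0 CPM and the IFN-γ wells 7.11 to 21.96 CPM with a median of 11.02 (12.02 ± 5.40, SD, n = 6). At 24 h the saline wells held 0 to 2.05 CPM with a median of 0 and the IFN-γ wells 7.26 to 15.6 CPM with a median of 10.3. The groups did not overlap at 6 or 24 h, which held for 2.81% and 1.47% of genes with a count in NeuN+ wells. Without the filter Oas1b rose by 3.90 at 6 h (SE 0.64, adjusted p = 1.54e-07, edgeR) and by 4.40 at 24 h (SE 0.56, adjusted p = 1.32e-12), in fits that called 0.571% and 0.95% of genes higher. DESeq2 also called both (adjusted p = 0.00202 and 2.15e-06), with 0.435% and 0.769% of genes called higher. With any 1 of the saline wells left out, Oas1b passed the filter at 6 h and was called, with log2 changes of 3.36 to 4.60. The filter then asked for fewer wells above its limit, and only IFN-γ wells reached it. These calls are thus no separate support for the change.

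At later times the NeuN+ wells held 8 counts of Oas1b against 1 at 48 h, a fold of 4.85 (0.651 to 215), and 4 against 1 at 72 h, a fold of 2.17 (0.214 to 107). In NeuN− nuclei no saline well at any time held a count of Oas1b. The IFN-γ wells held 10 counts at 6 h, in 5 of 6 wells and up to 24.3 CPM, and 16 counts at 24 h, in 3 of 6 wells and up to 29.7 CPM. Against the floor, Oas1b was at least 2.10-fold higher at 6 h and at least 2.99-fold higher at 24 h. Without the filter neither difference was called in edgeR (adjusted p = 0.0770 and 0.0140), although without IFN-γ well 4 the 24 h difference was (adjusted p = 0.00835).

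Oas1a, an active synthetase, was at lower counts. In NeuN+ nuclei no saline well of 6 h held a count, and the 6 IFN-γ wells held 1.18 to 3.33 CPM with a median of 2.34, 17 counts in all and at least 2.31-fold higher. At 24 h 1 count fell in the 6 saline wells (0 to 0.59 CPM) and 28 in the IFN-γ wells (2.07 to 12.9 CPM, median 4.81), a fold of 34.9 with an interval of 5.77 to 1428. Every IFN-γ well lay above every saline well at both times. The 24 h difference was called without the filter, with a log2 change of 4.35 (SE 0.79, adjusted p = 3.66e-06, edgeR) and by DESeq2 (adjusted p = 1.74e-04), while that at 6 h was not (adjusted p = 0.0552). At 48 and 72 h 3 and 1 counts remained, against 0 in saline.

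In NeuN− nuclei Oas1a had no count in any saline well, 8 counts in 4 of 6 IFN-γ wells at 6 h (0 to 17.4 CPM) and 15 in 4 of 6 wells at 24 h (0 to 34.8 CPM). These were at least 1.68-fold and 2.81-fold higher, and neither was called without the filter (adjusted p = 0.139 and 0.0180, edgeR). The near-identical Oas1g moved as Oas1a did in NeuN+ nuclei, with 44 counts against 1 at 6 h and 76 against 1 at 24 h, folds of 17.9 (3.06 to 724) and 94.8 (16.5 to 3792). Its IFN-γ wells also lay above all saline wells at both times. In NeuN− nuclei Oas1g had 2 counts at 6 h and 4 at 24 h, against 0 in saline. The related Oas1c had 22 counts in IFN-γ and 22 in saline wells of NeuN+ nuclei, and Oas1d, Oas1e, Oas1f and Oas1h had at most 5 counts in either treatment of a fraction.

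Oas2, a larger synthetase, had few counts in both fractions. In NeuN− nuclei at 24 h no saline well held a count, and 5 of 6 IFN-γ wells did, with 16 counts and levels of 0 to 23.2 CPM, at least 2.99-fold higher. At 6 h 4 IFN-γ wells held 7 counts (0 to 14.6 CPM) and 1 saline well a single count (7.25 CPM), a fold of 4.40 (0.566 to 199). The groups overlapped at both times, and without the filter neither difference was called (adjusted p = 0.468 at 6 h and 0.0136 at 24 h, edgeR). In NeuN+ nuclei the fold was 0.51 (0.110 to 2.57) at 6 h, 2.67 (1.03 to 7.75) at 24 h, 3.34 (0.728 to 31.0) at 48 h and 4.33 (0.581 to 192) at 72 h, on 1 to 15 counts per group, with no call (adjusted p = 0.713 at 6 h and 0.310 at 24 h).

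Oasl1, the brake on Irf7 translation, showed no call in either fraction. In NeuN+ nuclei IFN-γ wells held 19 counts at 6 h (0 to 4.41 CPM, median 2.67) and saline wells 3, a fold of 2.58 (0.76 to 13.6, adjusted p = 0.533 without the filter, edgeR). At 24 h the order was the other way, with 6 counts after IFN-γ (0 to 2.37 CPM, median 0.80) and 18 in saline (0 to 5.84 CPM, median 2.49), a fold of 0.416 (0.135 to 1.09, adjusted p = 0.428). At 48 and 72 h the folds were 1.62 (0.601 to 5.05) and 0.632 (0.182 to 2.28). The groups overlapped at all 4 times. In NeuN− nuclei the saline wells held no count, and the IFN-γ wells 5 at 6 h and 7 at 24 h. Of these, 3 of the 5 lay in well 4 and 4 of the 7 in well 3, so no bound is given.

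Oas3, the largest of the synthetases, was close to the limit of detection. All 84 wells together held 23 counts, at most 5 in any group. NeuN+ wells held 4, 0, 4 and 5 counts after IFN-γ at 6, 24, 48 and 72 h and 0, 2, 0 and 1 in saline. NeuN− wells held 0, 4, 2 and 0 after IFN-γ and 1, 0, 0 and 0 in saline. A change in Oas3 was not detectable at this depth.

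The fractions were compared next, to ask whether neuronal and other nuclei responded to a different extent. In IFN-γ wells the pooled level of Oasl2 in NeuN+ relative to NeuN− nuclei was 0.52 at 6 h (interval 0.39 to 0.71) and 0.32 at 24 h (0.26 to 0.40). For Oas1a the ratio was 0.22 (0.09 to 0.59) and 0.29 (0.15 to 0.59), and for Oas2 it was 0.07 (0.02 to 0.27) and 0.15 (0.07 to 0.32). Relative to all UMIs counted, these 3 members were thus at lower levels in NeuN+ nuclei after IFN-γ, beyond counting error at both times. NeuN+ wells held a median of 1064222 UMIs and NeuN− wells 110247.5, so levels per nucleus are another matter. The 6 IFN-γ wells held 268 counts of Oasl2 in NeuN+ against 54 in NeuN− at 6 h, and 265 against 131 at 24 h. Oas1a held 17 against 8 and 28 against 15, and Oas2 5 against 7 and 15 against 16. For Oas1b the ratio was 0.91 (0.47 to 1.96) at 6 h and 0.62 (0.35 to 1.15) at 24 h, intervals that include equal levels. The fold over saline is another quantity, and the interaction of fraction and IFN-γ tested it. For Oasl2, the only member tested, it was 0.22 on the log2 scale at 6 h and −0.51 at 24 h (adjusted p = 0.944 at both, edgeR), where 2.5% and 4.17% of genes were called. At 24 h its sign turned with DESeq2 (0.37) and with NeuN+ wells thinned to the NeuN− depth (0.33). In thinned NeuN+ wells no gene was called for IFN-γ at 24 h (0 of 2619 tested), so the thinned value is no guide.

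Cell-type markers moved with treatment in both fractions. The summed oligodendrocyte markers (7 genes) were 7446 to 8427 CPM in saline and 3960 to 5253 CPM in IFN-γ wells at 6 h, and 7518 to 9229 against 2491 to 3070 CPM at 24 h. Astrocyte markers (7 genes) were 1333 to 3305 CPM in saline and 4279 to 5304 CPM after IFN-γ at 24 h, and microglia markers (9 genes, none at 0 in saline) were 468 to 634 against 47.7 to 260 CPM at 6 h. In NeuN+ wells the oligodendrocyte markers were 299 to 420 CPM in saline and 168 to 222 CPM after IFN-γ at 6 h, and 358 to 444 against 634 to 730 CPM at 72 h. The astrocyte markers were 1143 to 1286 against 764 to 899 CPM at 6 h. GABA neuron markers (3 genes) were 206 to 323 CPM in saline and 107 to 161 CPM after IFN-γ at 24 h, and dopamine neuron markers (6 genes) 152 to 252 against 452 to 566 CPM at 72 h, again with no overlap. In the same fraction microglia markers were 72.7 to 90.2 CPM in saline and 81.2 to 105 CPM after IFN-γ at 6 h. Their part in the Oas values was not tested.

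The decline after 24 h was large. Within IFN-γ wells, Oasl2 fell from 24 to 72 h by 4.08 on the log2 scale in NeuN− nuclei (SE 0.42) and by 4.18 in NeuN+ nuclei (SE 0.28, adjusted p = 1.80e-15, edgeR). Oas1b fell by 4.02 in NeuN+ nuclei (SE 0.51, adjusted p = 7.91e-08). Among all genes tested, 12.9% were called in this contrast in NeuN− and 1.91% in NeuN+ wells, in either direction. Both members passed the filter on low counts through their wells of 6 and 24 h alone, so these calls are no separate support for the decline. At 72 h Oasl2 was at most 9.14 CPM in NeuN− and 5.73 CPM in NeuN+ IFN-γ wells, and Oas1b at most 1.00 CPM in NeuN+ IFN-γ wells. In NeuN+ nuclei the IFN-γ wells of 24 and 72 h held 30.1 to 74.9 and 23.2 to 61.2 CPM of Xist, while the saline wells of 24 h held 21.0 to 1177 CPM. From 6 to 24 h no member was called: Oasl2 changed by 0.92 in NeuN− nuclei (SE 0.27, adjusted p = 0.00695, below the limit on size) and by 0.25 in NeuN+ nuclei, and Oas1b by −0.20 in NeuN+ nuclei. Without IFN-γ well 4 of 6 h, the NeuN− change in Oasl2 was 1.09 and was called. The background for 24 against 6 h was 9.39% in NeuN− and 1.72% in NeuN+ wells. Taken as a difference between the 2 responses to IFN-γ, with saline wells of each time in the fit, the decline was −4.76 for Oasl2 in NeuN− nuclei (adjusted p = 0.0560), −2.92 in NeuN+ nuclei (adjusted p = 0.565) and −3.58 for Oas1b in NeuN+ nuclei (adjusted p = 0.429), and none of these was called.

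In saline wells of all times together, Oasl2 held 17 counts in NeuN+ and 5 in NeuN− nuclei, 0.377 times the level (0.134 to 1.31), and Oas2 14 and 5, 0.31 times the level (0.106 to 1.10). Oasl1 held 33 counts in NeuN+ nuclei and none in NeuN− nuclei, at least 1.22-fold higher. No member was called between the fractions without the filter (adjusted p = 0.0173 for Oasl1, 0.384 for Oasl2 and 0.233 for Oas2, edgeR) or by DESeq2, and 1 member, Oasl1, had an unadjusted p below 0.05. In the edgeR fit 20.6% of genes were called in either direction.

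Pde12 and Akap7, whose products degrade the oligoadenylates, and Abce1, a ribosome recycling factor, were examined beside the synthetases. None of these 3 was called by edgeR or DESeq2 after IFN-γ at any time. At an unadjusted p below 0.05 stood Abce1 in NeuN− nuclei at 6, 24 and 72 h, with log2 changes of 0.53, 0.76 and 0.71, and Akap7 in NeuN+ nuclei at 6 h, with −0.27. Pde12 had too few counts to be tested with the filter in NeuN− nuclei, and in NeuN+ nuclei it was tested at 48 and 72 h, with log2 changes of −0.17 and −0.02.

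**Figure D2:**
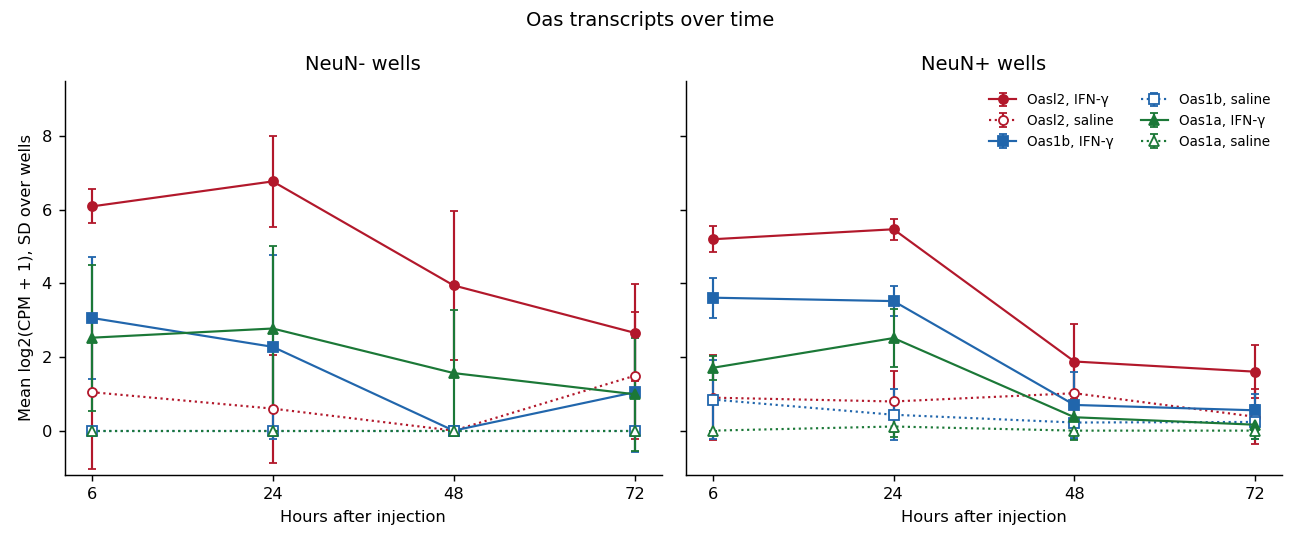
Mean log2(CPM + 1) ± SD over wells of Oasl2, Oas1b and Oas1a against hours after injection, with IFN-γ wells as solid and saline wells as dotted lines, in NeuN− and NeuN+ nuclei. The means of all 3 genes lie above saline at 6 and 24 h and fall toward it at 48 and 72 h.

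The response of other antiviral interferon genes was read from a list of 20. In NeuN− nuclei 8 of 9 tested rose at 6 h and 5 of 5 at 24 h, with median log2 changes of 2.91 and 3.89. Of those tested in NeuN+ nuclei, 9 of 13 rose at 6 h and 8 of 12 at 24 h (medians 3.21 and 2.88). Over all genes tested, 7.86% and 7.38% were called higher in NeuN− and 1.08% and 1.47% in NeuN+ wells. A gene can pass the filter on low counts through its IFN-γ wells alone, so these counts and medians do not stand for all 20 genes. Irf1, a transcription factor that binds ISRE elements, rose in NeuN− nuclei by 6.88 on the log2 scale at 6 h and 6.27 at 24 h, and in NeuN+ nuclei by 6.24 and 5.94. Stat2, a signal transducer of interferon receptors, rose by 3.11 and 3.89 in NeuN− nuclei. Eif2ak2, the kinase PKR that stops translation on double-stranded RNA, rose by 3.43 at 24 h in NeuN− nuclei and by 4.10 at 6 h in NeuN+ nuclei. The antiviral GTPase gene Mx2 rose by 4.70 at 6 h in NeuN− nuclei and by 5.09 and 4.51 in NeuN+ nuclei, and Ifih1, the double-stranded RNA sensor MDA5, by 4.45 at 6 h in NeuN− and 4.66 at 24 h in NeuN+ nuclei. The log2 changes of Oasl2 given above, 4.29 and 5.62, lay above both NeuN+ medians. At 48 and 72 h 0 of 9 and 0 of 5 tested genes were called in NeuN+ nuclei by edgeR, where 3 and 1 of them had an unadjusted p below 0.05 and DESeq2 called none, and 1 of 2 in NeuN− nuclei (Stat2, by 2.41 and 1.55). Over all genes tested, 0.15% and 0.351% were called higher at these times in NeuN+ and 1.23% and 0.754% in NeuN− wells.

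Single nuclei resolved the cell types at 48 h. Of 4699 nuclei, 4402 fell in clusters named by markers, with no cell barcode shared by libraries: oligodendrocytes (191 saline nuclei, 744 and 306 from the IFN-γ mice), astrocytes (21, 135 and 37), microglia (31, 36 and 31), VGLUT2 neurons (261, 771 and 272), GABA neurons (291, 567 and 270) and dopamine neurons (175, 154 and 109). Values are UMIs summed per class and mouse, and CPM here is on the UMIs of that class and mouse. With 1 saline mouse, the edgeR test takes its variation to be that between the IFN-γ mice, and a call needed a log2 change beyond 3, in the fit and in each IFN-γ mouse, at an adjusted p below 0.01.

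Oasl2 was higher after IFN-γ in oligodendrocytes and astrocytes. Oligodendrocytes held no UMI of it in the saline mouse and 161 and 173 in the IFN-γ mice, 59.6 and 119.8 CPM, at least 18.7-fold higher (adjusted p = 1.41e-22, edgeR). Astrocytes held 0 against 61 and 31 UMIs, 94.3 and 133.2 CPM, at least 3.80-fold higher (adjusted p = 0.00302). The background of genes called higher was 0.578% in oligodendrocytes and 0.0844% in astrocytes. The astrocyte call rested on 21 saline nuclei and was lost with RLE scaling (adjusted p = 0.164) and DESeq2 (0.999). Oligodendrocytes also fell into clusters by treatment, since 611 of them formed a cluster with no saline nucleus and 115 of the 191 saline nuclei lay in another.

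Microglia already held Oasl2 in saline: 7 UMIs (83.3 CPM) against 28 (185.3) and 15 (103.6) after IFN-γ, a fold of 1.74 (0.778 to 4.59, adjusted p = 0.654, edgeR). This cell type thus had the highest level of Oasl2 of the 6 classes in the saline mouse, from 31 nuclei. The class leaves out a cluster of 36 nuclei led by Cd74, all from the IFN-γ mice, whose best marker list was that of microglia. That cluster held 29 and 38 UMIs of Oasl2 (648 and 434 CPM), so the fold does not cover all microglia-like nuclei. In neurons the values were 2 UMIs against 55 and 18 in VGLUT2 neurons, a fold of 10.9 (2.92 to 92.0), and 5 against 57 and 61 in GABA neurons, a fold of 8.73 (3.64 to 27.4). Their levels were 0.38 against 4.54 and 3.25 CPM in VGLUT2 neurons and 0.86 against 5.77 and 10.4 in GABA neurons, below the levels in glia. Dopamine neurons held 8 against 4 and 15 UMIs, a pooled fold of 1.91 (0.799 to 5.05), but their levels of 1.46 and 6.73 CPM in the IFN-γ mice lay on either side of the 2.00 CPM in saline. The largest cluster of GABA nuclei differed by mouse. It was cluster 8 in the saline mouse (81 of 291 nuclei, beside 80 in cluster 3), cluster 6 in the first IFN-γ mouse (181 of 567) and cluster 3 in the second (77 of 270). Each of these clusters held nuclei of all 3 mice, cluster 6 with 16 from the saline and 2 from the second IFN-γ mouse. None of the 3 neuronal classes gave a call (adjusted p = 0.326 in VGLUT2 and 1.00 in GABA neurons).

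Oas1b was higher after IFN-γ in oligodendrocytes. Oligodendrocytes held 0 UMIs in saline and 34 and 18 after IFN-γ, 12.6 and 12.5 CPM, at least 2.90-fold higher (adjusted p = 0.00661, edgeR), a call that DESeq2 did not make. Astrocytes held 0 UMIs in saline and 9 and 0 after IFN-γ (13.9 CPM in the first mouse), and microglia 0 against 4 and 3 (26.5 and 20.7 CPM), too few to be tested. In neurons it was 3 UMIs against 50 and 25 in VGLUT2 neurons, a fold of 7.49 (2.47 to 37.1, adjusted p = 0.320), and 3 against 53 and 30 in GABA neurons, a fold of 10.2 (3.38 to 50.6). In dopamine neurons it was 0 against 10 and 11, at least 5.64-fold higher (adjusted p = 0.0916). Of the 3 neuronal differences none was called, except that in GABA neurons when no filter on UMIs was set (log2 change 3.30, adjusted p = 3.52e-04), a fit in which 0.0528% of genes were called higher.

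The other members were sparse. Oas1a held 0 UMIs in saline oligodendrocytes and 9 and 16 after IFN-γ, at least 1.40-fold higher (adjusted p = 0.162, edgeR). In microglia it was 5 UMIs in saline and 6 in each IFN-γ mouse, a fold of 0.681 (0.223 to 2.47), and in VGLUT2 neurons 0 against 7 and 4. The cluster led by Cd74, left out of the microglia class, held 4 and 12 UMIs of Oas1a in the IFN-γ mice. Oas2 in microglia was 1 UMI against 7 and 3, a fold of 2.84 (0.404 to 123), and it had no UMI in oligodendrocytes of any mouse. Oasl1 and Oas3 held at most 5 UMIs in any named class and mouse. In all, 2 of 6 members were called in oligodendrocytes, 1 in astrocytes and 0 in the other 4 classes by edgeR and DESeq2, where 3 members in VGLUT2, 2 in GABA, 1 in dopamine neurons and 0 in microglia had an unadjusted p below 0.05. In those classes the background of genes called higher was 0.702% in microglia, 0.0263% in VGLUT2 neurons, 0.0% in GABA neurons and 0.044% in dopamine neurons.

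Of the interferon list 5 of 20 tested genes rose in oligodendrocytes, led by Irf1, Ddx58, Irf7 and Eif2ak2 (PKR), of which Eif2ak2 rose by 4.06 on the log2 scale, and edgeR called none in the other 5 classes. DESeq2 called none of this list in any class. In the edgeR fit of oligodendrocytes 0.578% of all genes tested were called higher.

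**Figure D3:**
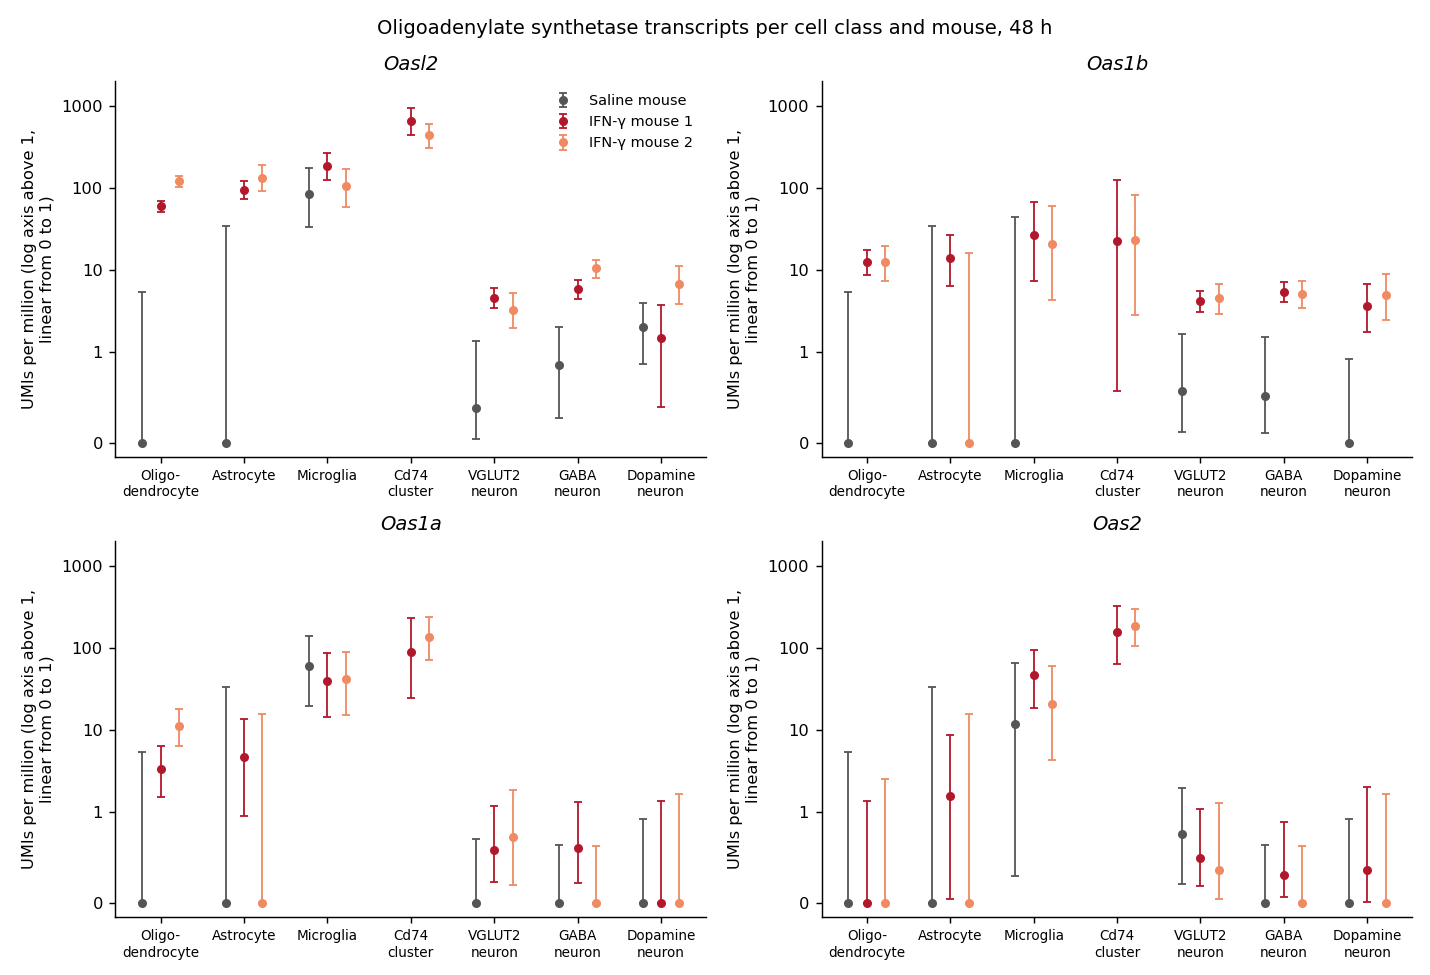
CPM of Oasl2, Oas1b, Oas1a and Oas2 in each class of nuclei and each mouse at 48 h, with exact 95% Poisson intervals, on an axis that is linear from 0 to 1 and logarithmic above. Oasl2 was 59.6 and 119.8 CPM in oligodendrocytes of the IFN-γ mice and 0 in the saline mouse, while microglia held 83.3 CPM in saline; the cluster led by Cd74 had no saline nuclei.

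The 6 classes were then compared with each other among nuclei of the IFN-γ mice, in 15 pairs with the mouse as a block. Oasl2 was called higher in the glial class in all 9 pairs of a glial with a neuronal class, by 3.40 to 4.62 on the log2 scale. Between glial classes its differences were −0.18 (SE 0.23), 0.10 (SE 0.27) and 0.28 (SE 0.30), and no pair of glia or of neurons was called for it. The microglia class in these pairs leaves out the cluster led by Cd74. That cluster held Oasl2 at 648 and 434 CPM in the IFN-γ mice, beside 185.3 and 103.6 CPM in the class. The pairs with microglia therefore do not cover all microglia-like nuclei. The share of genes called was 32.0%, 31.7% and 29.2% for oligodendrocytes against VGLUT2, GABA and dopamine neurons, 21.5%, 21.4% and 20.3% for astrocytes and 25.1%, 25.4% and 23.7% for microglia against the same classes. It was 16.8%, 19.3% and 16.4% for pairs of glia and 2.17%, 7.85% and 8.86% for pairs of neurons. Oas1a was called higher in oligodendrocytes than in VGLUT2 (3.27), GABA (4.00) and dopamine neurons (7.58), and in microglia than in the same classes (5.04, 5.77 and 9.36). Dopamine neurons of both IFN-γ mice held no UMI of Oas1a, so 7.58 and 9.36 are no measure of size. Oas1b was called in oligodendrocytes against the 3 neuronal classes by smaller differences of 1.31 to 1.58. These differences are relative to all UMIs of a class, and neuronal nuclei held more UMIs. By share of nuclei with a UMI the order was the other way in each IFN-γ mouse. Oas1b was found in 4.17% and 5.88% of oligodendrocyte nuclei. In VGLUT2, GABA and dopamine neurons the shares were 5.97% and 6.99%, 8.99% and 10.0%, and 5.19% and 7.34%. Oas2 was called in microglia against oligodendrocytes (9.26) and against VGLUT2 (5.42), GABA (6.58) and dopamine neurons (6.33). Oligodendrocytes held no UMI of Oas2, so 9.26 is no measure of size.

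Oasl1 gave no call and Oas3 had too few UMIs to be tested, which leaves 22 member calls over the 15 pairs.

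Genes whose level moved most like that of each member were sought over the 16 groups of wells, by Pearson correlation of group means, as a description over groups that share depth and nuclei. For Oasl2 these were Usp18 (r = 0.981), which removes the interferon-induced protein ISG15 from its targets, Ifi44 (0.979) and Ifit1 (0.978). For Oas1a they were Ifi44 (0.987), Ifit1 (0.974) and Gm43302 (0.974), and for Oas1b Gm20559 (0.908), Pnpt1 (0.892) and Tdrd7 (0.872). The genes nearest to Oas2 were Gm27247 (0.934), Timp3 (0.916) and Ptprz1 (0.864), and those nearest to Oasl1 were Fhad1 (0.888), Dync1h1 (0.886) and Aatf (0.880). Among the members, Oasl2 had r = 0.980 with Oas1a, 0.845 with Oas1b, 0.688 with Oas2 and 0.437 with Oasl1. The 23 counts of Oas3 were too few for this measure, which needed 50.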

How the data were processed

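The authors deposited 2 tables of raw counts, 1 of sorted wells and 1 of single nuclei. They aligned reads to GRCm38 with Gencode vM10 by STAR (version not given in the sources used here), collapsed reads to UMIs, and removed doublets from the 10x 3′ nuclei before the counts were deposited. Wells held 20962 to 301445 (NeuN−) and 277113 to 1684374 UMIs (NeuN+), and no 2 wells were duplicates. The members and gene lists were chosen with earlier results of these data known.

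Wells of 1 fraction and time were compared on counts in R 4.3.3 with edgeR 4.0.16 (filterByExpr, TMM, quasi-likelihood test, Benjamini-Hochberg adjustment over all genes tested), with limma 3.58.1 loaded by it. Few members passed that filter, so fits without it are given as well. DESeq2 1.42.0, RLE scaling, 1 fit of all wells, NeuN+ wells thinned to 110247 UMIs and each well left out in turn were alternatives. Pooled folds carry exact conditional 95% intervals, with a floor of 3 counts where a group had none. CPM used total counts.

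Nuclei were clustered in Python 3.11.15 (scipy 1.17.1, numpy 2.4.6, leidenalg 0.10.2, igraph 0.11.9, pandas 2.3.3, matplotlib 3.10.9, scikit-learn 1.9.0) on 2000 variable genes, 30 components and 15 neighbours at Leiden resolution 1 (0.5 and 2 as alternatives). They were named by markers, and UMIs were summed per class and mouse and tested for genes of at least 10 UMIs. On simulated counts, edgeR recovered 99.2% of changed genes tested in NeuN− (123 of 124) and 99.4% in NeuN+ wells (155 of 156) at 6 h (log2 change 2). For the interaction at 6 h it was 84.9%, and for oligodendrocytes against VGLUT2 neurons 74%. Changed genes were drawn above a minimum mean count, and some did not pass the filter. The rates therefore do not cover genes as sparse as most members.

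The text names the 6 members, Oas1g, genes of the 2-5A list, the genes of the interferon list with the 4 largest called changes and the 3 genes most like each member. Values of some genes under this rule are not reported here.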

Additional observations from a re-analysis of the deposited data

Results flagged for a closer look

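For normally spread values, chance puts about 1 in 20 groups of wells past the critical value used to find a well far from the others. That rate does not hold for sparse counts, where 1 well with a single count can pass alone. Among groups with at least 5 counts, 5 such wells were found. Oas1b in NeuN+ IFN-γ wells at 48 h was 3.71 CPM in well 5, with the next at 1.35 CPM. Oasl1 was 11.6 CPM in NeuN+ IFN-γ well 1 at 48 h, with the next at 2.95 CPM. Oasl1 was 80.4 CPM in NeuN− IFN-γ well 3 at 24 h, a shallow well of 49776 UMIs, with the next at 9.95 CPM. Oasl2 was 0 CPM in NeuN− IFN-γ well 4 at 72 h, with the next at 6.26 CPM, and 3.76 CPM in NeuN+ saline well 1 at 24 h, with the next at 0.973 CPM.

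In single nuclei both IFN-γ mice moved 1 way in some classes and the other way in others, a difference that was not tested. Oas1a had fitted log2 changes of 6.39 in oligodendrocytes and 5.30 in VGLUT2 neurons, with no UMI in either class of the saline mouse, and −0.57 in microglia. Oas2 had 1.41 in microglia and −0.73 in VGLUT2 neurons. The microglia class in these values leaves out the cluster described next.

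A cluster of 36 nuclei led by Cd74, H2-Aa, H2-Ab1, H2-Eb1 and Ctss, all from the IFN-γ mice (13 and 23), was given no cell type name and entered no comparison at Leiden resolution 1. Its microglia markers summed to 6728 CPM, beside 9839 in the named microglia. It held the members at 506 (Oasl2, 67 UMIs), 174 (Oas2, 23 UMIs), 121 (Oas1a, 16 UMIs), 98.3 (Oasl1, 13 UMIs) and 52.9 CPM (Oas3, 7 UMIs), and it held 1 and 2 UMIs of Oas1b in the IFN-γ mice (22.3 and 22.8 CPM). A count of 0 there allows up to 22.7 CPM. No saline nuclei stand beside it.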

How the results depend on the processing

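Of the counts of members called, 350 of 380 stayed within 1.5 times the value given, and of the single values 408 of 433 kept direction and call. A count of 0 that stayed 0 was scored as unchanged. Many counts were of this kind, such as all interactions with 1 well left out, so the first share is no measure of stability. In NeuN− wells the 0 members called at 6 and 24 h became 1 with DESeq2, without the filter and in 1 fit of all wells. In NeuN+ wells the 1 member called became 2 at 6 h and 3 at 24 h with DESeq2 or without the filter, and 0 at both times in thinned wells, where no member was tested. From 72 against 24 h, the 1 (NeuN−) and 2 (NeuN+) members called became 0 when saline wells were in the fit. The interaction for Oasl2 at 24 h, −0.51, was 0.37 with DESeq2 and 0.33 in thinned wells, and 24 against 6 h for Oas1b in NeuN+ wells, −0.20, was 0.52 with saline in the fit. In nuclei, oligodendrocytes went from 2 members to 1 with DESeq2, astrocytes from 1 to 0 with RLE and DESeq2, GABA neurons from 0 to 1 without the filter, and class pairs from 22 to 34 at Leiden resolution 0.5, where the cluster led by Cd74 joined microglia and Oas1a in microglia was 0.11 instead of −0.57. The cause was not tested.

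With 1 well left out, members called ranged from 0 to 1 in NeuN− at 24 h, 1 to 2 in NeuN+ at 6 h, and 0 to 1 for 24 against 6 h in NeuN−. Without the filter they ranged from 1 to 2 in NeuN− at 24 h. Oasl2 in NeuN+ wells ran from 3.80 to 5.83 at 6 h and 5.28 to 6.35 at 24 h. No paired analysis was possible because the labels give the wells no replicate numbers. Depth limited the members: Oas3 held 23 counts over all wells, and none passed the filter on low counts in NeuN− wells at 6 or 24 h.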
